A study of Mus musculus with 18 samples.

Results

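The enzymes that build fatty acids and phospholipids were followed in fetal mouse lung over the last days of gestation, as 42 genes picked by function from 18193 genes with a symbol on the array. They comprise 7 genes of the phosphatidylcholine head group, 3 lysophosphatidylcholine acyltransferases, 9 genes from glycerol phosphate to diacylglycerol, 4 of the CDP-diacylglycerol branch, 5 of acetyl-CoA, citrate and NADPH supply, 3 of fatty acid synthesis, 7 elongases and desaturases, 3 acyl-CoA synthetases and the transcription factor Srebf1. Each gene was read from 1 probe set, the one with the highest mean over all arrays. Lung RNA of BALB/c fetuses was measured on 18 Affymetrix MOE430 2.0 arrays, 3 for each of 6 groups, and by the study's methods every array carried pooled RNA of 3 fetuses that had the same sex and came from distinct litters. Males (17 m and 18 m) and females (17 f and 18 f) came from dams given vehicle and were taken on gestational day (GD) 17 or 18. Flutamide-treated males (17 flut and 18 flut) came from dams given 1 mg of flutamide, an androgen receptor antagonist, per day in 200 µl under the skin from GD10 to the day before harvest, so that the drug reached the fetuses through the dam. All values below are log2 of the deposited probe set intensity, the values of a group are given for pools 1, 2 and 3 in that order, and a difference is a log2 value ± the standard error of the limma model. A gene is called higher or lower where the limma p, adjusted by the Benjamini-Hochberg method over 45037 probe sets, was under 0.05. The p-values measure the spread between pools, and 3 arrays per group limit their precision.

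Pulmonary surfactant is made mostly of phosphatidylcholine with saturated acyl chains, together with phosphatidylglycerol, and is stored in the lamellar bodies of alveolar type II cells before birth. Its fatty acids can be taken up or made from acetyl-CoA by acetyl-CoA carboxylase and fatty acid synthase, after which elongases and desaturases modify the chains. Acyl chains are placed on glycerol phosphate to give phosphatidate, which either loses its phosphate and takes a choline head group from CDP-choline, or is activated to CDP-diacylglycerol on the way to phosphatidylglycerol and cardiolipin.

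Surfactant protein C (Sftpc), the defining marker of type II cells, was at 13.92 to 14.33 at GD17 and 14.56 to 14.72 at GD18 over the 9 pools of each day, and the mean of 14 type II cell genes was 9.19 to 10.1 at GD17 and 11.1 to 11.4 at GD18. In bulk lung a change in the number of cells of a type and a change in RNA per cell cannot be told apart. Pools 17 f 2, 17 f 3 and 17 m 3 stood apart through exocrine pancreas genes, whose mean over 11 genes was 9.37 to 9.996 against 5.54 to 6.005 in the other 15 pools. Against the other 3 vehicle pools of GD17, they were also higher in 9 of 10 liver genes and 6 of 8 squamous epithelium genes by over 1 log2. Pool 18 m 3 had the highest mean of 10 liver genes (11.8), 4 of 6 heart genes over 1 log2 above 18 m 1 and 18 m 2, and a low 5′ signal of the control genes: the 5′ minus 3′ difference of Gapdh was -0.39 there and 0.14 to 0.27 in the other 17 pools. Pool 18 flut 3 had Xist at 11.9, against 7.81 to 8.69 in the other pools of male fetuses and 11.3 to 12.5 in the pools of females, and the lowest Y-linked Eif2s3y, Kdm5d and Uty of the male pools (7.11 to 7.21, against 7.90 to 8.84). It does not match a pool of males alone, and every flutamide value at GD18 below rests in part on it. Member calls that were lost without the 3 GD17 pools, the 2 GD18 pools or all 5 are given as such. Leaving out the 3 GD17 pools leaves 1 pool of females and 2 of males at that day, and the lone pool is assumed to vary like the other groups. Brown and white adipose genes had a list mean of 4.88 to 5.15 in all 18 pools, below the array medians of 6.34 to 6.40.

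Upstream sequence is shown for 4 members that changed on all 3 day comparisons below, 2 that rose (Acss2 and Elovl5) and 2 that fell (Elovl6 and Fads2), so that the letters near their start sites can be set beside their values, and each of these has 1 window that ends at its annotated gene start. The 250 bases that precede the RefSeq gene start in the mouse assembly GRCm38.p6 are printed 5′ to 3′ along the gene's strand. They lie at chr2:155517793-155518042 (plus strand), chr9:77917115-77917364 (plus strand), chr3:129532136-129532385 (plus strand) and chr19:10101504-10101753 (minus strand). Capitals mark matches on either strand to CCAAT (the NF-Y box), GGGCGG (the Sp1 box), CACGTG (an E-box) and CACNCCAC (the core of a sterol regulatory element). The assembly is of C57BL/6J and not of the BALB/c fetuses.
Acss2 upstream window: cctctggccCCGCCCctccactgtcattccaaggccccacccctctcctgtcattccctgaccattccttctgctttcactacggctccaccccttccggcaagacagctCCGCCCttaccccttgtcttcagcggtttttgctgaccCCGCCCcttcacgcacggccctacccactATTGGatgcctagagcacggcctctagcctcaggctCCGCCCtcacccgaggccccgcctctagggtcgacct
Elovl5 upstream window: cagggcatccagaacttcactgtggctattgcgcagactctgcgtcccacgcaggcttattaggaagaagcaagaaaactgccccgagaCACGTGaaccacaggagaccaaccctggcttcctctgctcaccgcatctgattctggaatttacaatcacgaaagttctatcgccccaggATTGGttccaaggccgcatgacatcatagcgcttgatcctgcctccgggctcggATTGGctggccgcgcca
Elovl6 upstream window: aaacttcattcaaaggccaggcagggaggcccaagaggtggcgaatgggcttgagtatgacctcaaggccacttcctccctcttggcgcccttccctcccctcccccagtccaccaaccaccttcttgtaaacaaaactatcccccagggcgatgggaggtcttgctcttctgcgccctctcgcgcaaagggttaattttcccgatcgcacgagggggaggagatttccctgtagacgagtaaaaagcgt
Fads2 upstream window: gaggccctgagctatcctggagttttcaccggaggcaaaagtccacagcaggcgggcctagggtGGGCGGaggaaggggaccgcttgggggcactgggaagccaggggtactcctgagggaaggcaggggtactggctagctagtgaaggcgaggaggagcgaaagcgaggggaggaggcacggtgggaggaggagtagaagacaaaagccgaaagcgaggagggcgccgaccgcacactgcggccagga

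The Acss2 window held 4 matches to GGGCGG and 1 to CCAAT, and that of Elovl5 held 2 to CCAAT and 1 to CACGTG. The Fads2 window held 1 match to GGGCGG and that of Elovl6 held 0 matches. For all members, windows of 300 bases (250 before and 50 after a start) were searched, which 38 of the 42 members had. CCAAT was in a window of 24 of the 38 members and in 37.4% of 32851 windows of all genes, and GGGCGG was in 26 members and 35.7% of windows. CACGTG was in 5 members and 7.15% of windows, and CACNCCAC in 6 members (Pcyt1a, Pcyt1b, Gpam, Lpin2, Slc25a1 and Acsl4) and 6.24% of windows. The full-length sterol regulatory element was in 0 of the 38 members and 0.234% of windows. A member can have several windows (55 in the 38 members) and was counted if any of them held a match. Counts of members therefore cannot be set against shares of windows, and they are descriptions of the letters only. No window was read for Agpat5, Scd1, Scd2 and Fads1.

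**Figure D1:**
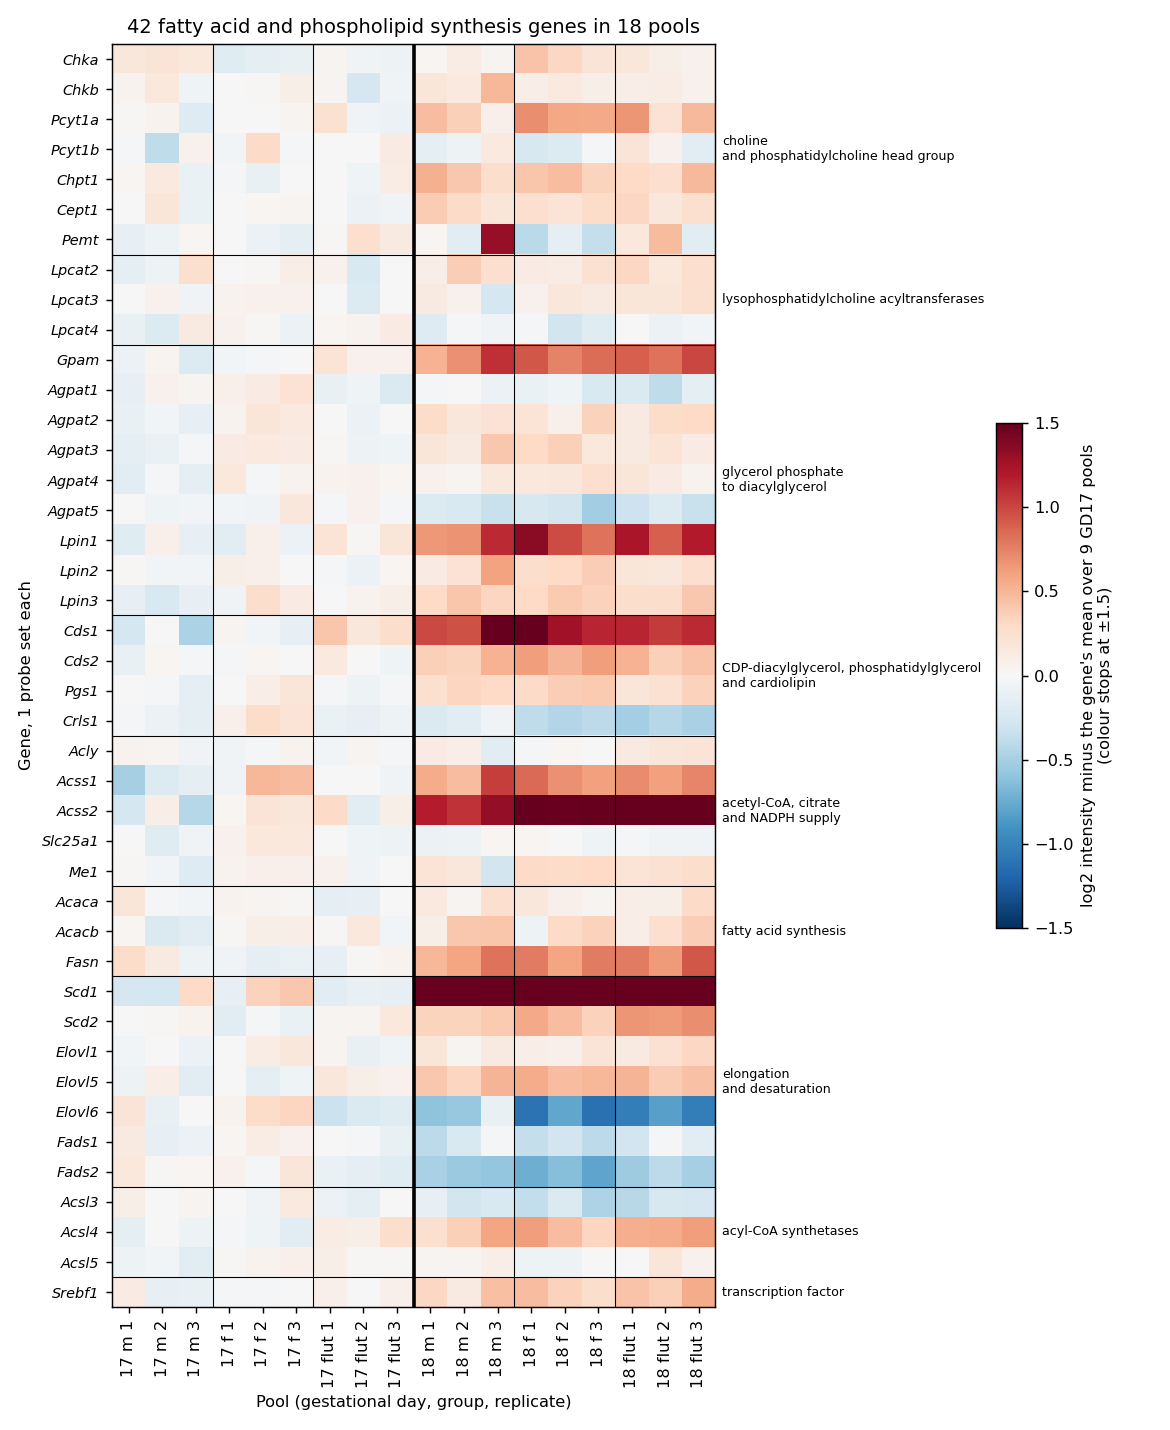
Heat map of the 42 members (rows, grouped by role) in the 18 pools (columns, grouped by day and group). Colour gives the log2 intensity minus the gene's mean over the 9 GD17 pools, and most rows turn to higher values at GD18, while Elovl6, Fads2 and Agpat5 turn to lower ones.

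From GD17 to GD18 most of these genes changed, and they mostly rose. In males 25 of 42 members were called, 22 higher and 3 lower, against 30.1% of all genes (17.7% higher and 12.4% lower). In females 26 were called, 19 higher and 7 lower, against 39.6% of all genes (17.2% higher and 22.5% lower). In flutamide-treated males 25 were called, 21 higher and 4 lower, against 26.7% of all genes (13% higher and 13.8% lower). The median member difference was 0.29, 0.13 and 0.25 in the 3 comparisons, against 0.03, -0.01 and -0.01 over all genes. These comparisons share no pools. In all, 17 members were called higher in every one of them, and this held for 10% of all genes.

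The 17 risers were Pcyt1a, Chpt1, Cept1, Gpam, Lpin1, Lpin3, Cds1, Cds2, Pgs1, Acss1, Acss2, Fasn, Scd1, Scd2, Elovl5, Acsl4 and Srebf1. Elovl6 and Fads2, 2 of 42, were called lower in all 3, against 8.64% of all genes. Another 14 members were called in 1 or 2 of the comparisons, 9 in none, and 0 in opposite directions. In 13 members (31%) all 9 pools of GD18 lay above all 9 of GD17, and in 2 (4.76%) they lay below, against 10.3% and 9.14% of all genes. Without the 5 pools that stood apart, 16 of the 19 members called in all 3 comparisons were called in all 3 again, Pcyt1a, Cept1 and Srebf1 being the others, and the counts were 16 higher and 2 lower in males, 17 and 5 in females and 20 and 4 in flutamide-treated males. Markers moved with the day too: 12 of the 14 type II genes were called higher in each comparison, and 7, 9 and 9 of the 9 dividing-cell genes were called lower in males, females and flutamide-treated males. Lipofibroblast genes were called higher in 4, 4 and 2 of 7 and lower in 1 of 7 in each group. In females, where the most member falls were called, 9 of 11 exocrine pancreas genes, 6 of 8 erythroid genes, 4 of 10 liver genes and 2 of 8 squamous epithelium genes were called lower as well. In males and flutamide-treated males 0 genes of the pancreas and liver lists were called by limma, and 0 had an unadjusted p under 0.05. Their median differences were still -1.21 for pancreas and 1.15 for liver in males, and 0.02 and 1.61 in flutamide-treated males. The part of all these markers in the differences below was not tested.

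**Figure D2:**
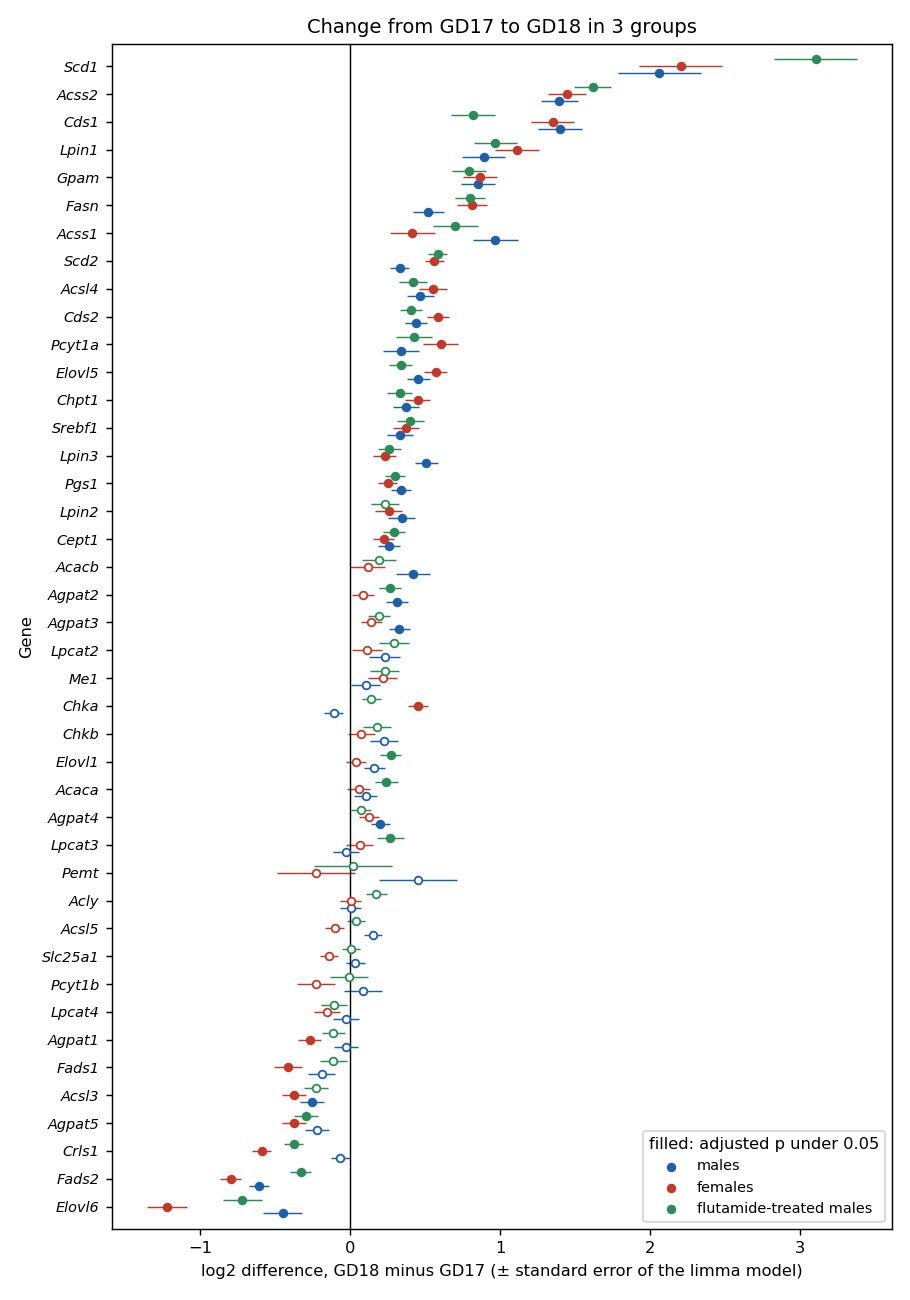
Difference from GD17 to GD18 (log2, horizontal axis) of each of the 42 members in males, females and flutamide-treated males, with the standard error of the model and filled points where called. Scd1 lies farthest to the right in all 3 groups, and Elovl6 and Fads2 are called to the left of 0 in each.

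The first steps of glycerolipid synthesis held some of the clearest rises. Of the 9 genes from glycerol phosphate to diacylglycerol, 7 were called higher and 0 lower in males, 4 and 2 in females and 4 and 1 in flutamide-treated males, against 17.7% and 12.4%, 17.2% and 22.5%, and 13% and 13.8% of all genes. Their median difference was 0.33, 0.14 and 0.23 in males, females and flutamide-treated males. Gpam, the mitochondrial acyltransferase that adds the first acyl chain to glycerol phosphate, was at 10.004, 10.13 and 9.88 in males, 10.05, 10.07 and 10.08 in females and 10.29, 10.16 and 10.16 in flutamide-treated males at GD17. At GD18 it was at 10.61, 10.77 and 11.19 in males, 11.02, 10.84 and 10.93 in females and 10.98, 10.91 and 11.09 in flutamide-treated males, above every pool of GD17. Its differences were 0.85 ± 0.11 in males, 0.86 ± 0.11 in females and 0.79 ± 0.11 in flutamide-treated males (adjusted p = 5.51e-05, 1.62e-05 and 0.000106).

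Lipins remove the phosphate of phosphatidate to give diacylglycerol, and their members rose by different amounts. Lpin1 was at 7.03, 7.29 and 7.09 in males, 7.04, 7.29 and 7.12 in females and 7.42, 7.23 and 7.40 in flutamide-treated males at GD17 and at 7.86, 7.89 and 8.34 in males, 8.57, 8.19 and 8.03 in females and 8.44, 8.11 and 8.40 in flutamide-treated males at GD18. No pool of one day overlapped with the other day, and the differences were 0.89 ± 0.14 in males, 1.11 ± 0.14 in females and 0.97 ± 0.14 in flutamide-treated males (adjusted p = 0.00028, 1.47e-05 and 0.000149). Lpin2 was at 8.92, 8.87 and 8.86 in males, 9.0, 8.98 and 8.91 in females and 8.88, 8.82 and 8.94 in flutamide-treated males at GD17 and at 9.03, 9.13 and 9.52 in males, 9.18, 9.21 and 9.27 in females and 9.09, 9.08 and 9.15 in flutamide-treated males at GD18. It was called in males (0.34 ± 0.09, adjusted p = 0.0114) and in females (0.26 ± 0.09, adjusted p = 0.0408), and stood at 0.23 ± 0.09 in flutamide-treated males (adjusted p = 0.0926), with all GD18 pools above all GD17 pools. Lpin3 was at 5.95, 5.85 and 5.96 in males, 6.03, 6.34 and 6.21 in females and 6.08, 6.13 and 6.17 in flutamide-treated males at GD17 and at 6.38, 6.50 and 6.40 in males, 6.38, 6.47 and 6.42 in females and 6.34, 6.35 and 6.48 in flutamide-treated males at GD18. Its days overlapped only through 17 f 2 and 18 flut 1, both at 6.34, and its differences were 0.51 ± 0.08 in males, 0.23 ± 0.08 in females and 0.26 ± 0.08 in flutamide-treated males (adjusted p = 0.000133, 0.0253 and 0.0196). The Lpin2 call in females was lost when any pool of females was left out, 17 f 1, 17 f 2, 17 f 3, 18 f 1, 18 f 2 or 18 f 3 (adjusted p 0.06 to 0.127). Lpin3 was not called in females without 17 f 1, 17 f 3, 18 f 2 or 18 f 3 (adjusted p 0.0541 to 0.144) nor in flutamide-treated males without 17 flut 1, 17 flut 2 or 18 flut 3 (adjusted p 0.0511 to 0.0988). Without the 3 GD17 pools Lpin2 was at 0.33 (adjusted p = 0.0545) in males and 0.22 (adjusted p = 0.347) in females, and without all 5 at 0.19 (adjusted p = 0.112) and 0.22 (adjusted p = 0.0859). Without the 2 GD18 pools Lpin3 was at 0.22 (adjusted p = 0.083) in flutamide-treated males.

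The acylglycerolphosphate acyltransferases, which add the next acyl chain, did not move as 1 group. Agpat2 rose in males, from 8.08, 8.15 and 8.07 to 8.47, 8.37 and 8.41, and in flutamide-treated males, from 8.20, 8.11 and 8.19 to 8.33, 8.48 and 8.49. The differences were 0.31 ± 0.07 (adjusted p = 0.00433) and 0.26 ± 0.07 (adjusted p = 0.0154), against 0.08 ± 0.07 in females (adjusted p = 0.433). Agpat3 rose in males, from 8.13, 8.16 and 8.23 to 8.44, 8.40 and 8.66 (0.33 ± 0.07, adjusted p = 0.00294), as did Agpat4, from 9.65, 9.79 and 9.67 to 9.88, 9.86 and 9.98 (0.20 ± 0.06, adjusted p = 0.0303). Agpat5 was at 9.15, 9.09 and 9.12 in males, 9.11, 9.11 and 9.33 in females and 9.14, 9.22 and 9.14 in flutamide-treated males at GD17 and at 8.95, 8.92 and 8.82 in males, 8.92, 8.88 and 8.63 in females and 8.85, 8.95 and 8.82 in flutamide-treated males at GD18. All its GD18 pools were below all GD17 pools, and it was called lower in females (-0.37 ± 0.08, adjusted p = 0.00156) and flutamide-treated males (-0.29 ± 0.08, adjusted p = 0.0153), with -0.22 ± 0.08 in males (adjusted p = 0.0539). Agpat1 fell in females, from 7.74, 7.78 and 7.88 to 7.56, 7.59 and 7.44 (-0.27 ± 0.08, adjusted p = 0.0119). Calls were lost for Agpat2 in flutamide-treated males without 17 flut 2, 18 flut 2 or 18 flut 3 (adjusted p 0.0557 to 0.071), for Agpat4 without 17 m 1, 17 m 3 or 18 m 3 (adjusted p 0.0872 to 0.105), for Agpat5 in flutamide-treated males without 17 flut 2, 18 flut 1 or 18 flut 3 (adjusted p 0.0522 to 0.0655) and for Agpat1 without 17 f 3 or 18 f 3 (adjusted p 0.0613 to 0.0629). Leaving out the 2 GD18 pools also ended the calls of Agpat2 in flutamide-treated males and of Agpat4 in males. Without the 3 GD17 pools Agpat5 was at -0.30 (adjusted p = 0.0778) and Agpat1 at -0.21 (adjusted p = 0.259) in females, and Agpat4 at 0.18 (adjusted p = 0.0919) in males. Without all 5 pools these were -0.30 (adjusted p = 0.0649), -0.21 (adjusted p = 0.214) and 0.15 (adjusted p = 0.211), and Agpat2 in flutamide-treated males was at 0.23 (adjusted p = 0.0834), so that none of the 4 was called.

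Of the 4 genes of the CDP-diacylglycerol branch, Cds1, Cds2 and Pgs1 rose in every day comparison, and Crls1, the cardiolipin synthase, did not. Tamm41, the mitochondrial CDP-diacylglycerol synthase and not a member, fell in all 3 groups, as given below. Cds1, a CDP-diacylglycerol synthase, was at 6.61, 6.87 and 6.39 in males, 6.91, 6.83 and 6.75 in females and 7.29, 7.03 and 7.14 in flutamide-treated males at GD17. At GD18 it was at 7.86, 7.82 and 8.40 in males, 8.39, 8.12 and 8.02 in females and 8.02, 7.91 and 7.99 in flutamide-treated males, and every one of these pools was above all 9 of GD17. The rise was 2.64-fold in males, 2.55-fold in females and 1.77-fold in flutamide-treated males, or 1.40 ± 0.14 in males, 1.35 ± 0.14 in females and 0.82 ± 0.14 in flutamide-treated males (adjusted p = 6.05e-06, 2.34e-06 and 0.000632). Its paralog Cds2 was at 9.84, 9.99 and 9.92 in males, 9.93, 9.98 and 9.95 in females and 10.10, 9.96 and 9.89 in flutamide-treated males at GD17 and at 10.30, 10.29 and 10.48 in males, 10.58, 10.47 and 10.58 in females and 10.47, 10.31 and 10.38 in flutamide-treated males at GD18. The days again did not overlap, with differences of 0.44 ± 0.07 in males, 0.59 ± 0.07 in females and 0.41 ± 0.07 in flutamide-treated males (adjusted p = 0.000322, 9.34e-06 and 0.000693). Pgs1, which joins CDP-diacylglycerol with glycerol phosphate, was at 7.96, 7.94 and 7.83 in males, 7.97, 8.07 and 8.14 in females and 7.94, 7.88 and 7.94 in flutamide-treated males at GD17 and at 8.21, 8.28 and 8.26 in males, 8.25, 8.33 and 8.35 in females and 8.15, 8.19 and 8.31 in flutamide-treated males at GD18. Its pools did not overlap between the days either, and its differences were 0.34 ± 0.06 in males, 0.25 ± 0.06 in females and 0.30 ± 0.06 in flutamide-treated males (adjusted p = 0.00103, 0.00592 and 0.00306). Crls1 was called lower in females, from 9.32, 9.52 and 9.44 to 8.86, 8.80 and 8.85, and in flutamide-treated males, from 9.14, 9.12 and 9.17 to 8.73, 8.82 and 8.76. These differences were -0.59 ± 0.06 (adjusted p = 2.39e-06) and -0.38 ± 0.06 (adjusted p = 0.000429), against -0.06 ± 0.06 in males (adjusted p = 0.523).

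Of the 7 genes of the choline head group, 3 were called higher in males, 4 in females and 3 in flutamide-treated males, and 0 lower, against 17.7%, 17.2% and 13% of all genes called higher. Their median difference was 0.26, 0.22 and 0.18 in males, females and flutamide-treated males. Pcyt1a, the cytidylyl transferase that makes CDP-choline and sets the pace of phosphatidylcholine synthesis, was at 9.82, 9.86 and 9.61 in males, 9.80, 9.80 and 9.84 in females and 10.03, 9.75 and 9.72 in flutamide-treated males at GD17 and at 10.26, 10.17 and 9.88 in males, 10.501, 10.38 and 10.37 in females and 10.46, 10.02 and 10.29 in flutamide-treated males at GD18. Its days overlapped, and its differences were 0.34 ± 0.12 in males, 0.60 ± 0.12 in females and 0.43 ± 0.12 in flutamide-treated males (adjusted p = 0.0452, 0.000694 and 0.0159). Chpt1, the cholinephosphotransferase that joins choline to diacylglycerol, was at 7.89, 8.01 and 7.76 in males, 7.85, 7.76 and 7.86 in females and 7.86, 7.80 and 7.98 in flutamide-treated males at GD17 and at 8.39, 8.26 and 8.12 in males, 8.28, 8.33 and 8.20 in females and 8.16, 8.11 and 8.34 in flutamide-treated males at GD18. It did not overlap between the days and differed by 0.37 ± 0.09 in males, 0.45 ± 0.09 in females and 0.33 ± 0.09 in flutamide-treated males (adjusted p = 0.0046, 0.000602 and 0.0115). Cept1, the related choline and ethanolamine phosphotransferase, was at 9.91, 10.09 and 9.82 in males, 9.91, 9.94 and 9.95 in females and 9.91, 9.83 and 9.85 in flutamide-treated males at GD17 and at 10.30, 10.20 and 10.09 in males, 10.17, 10.12 and 10.18 in females and 10.23, 10.08 and 10.15 in flutamide-treated males at GD18. Its rise was 0.26 ± 0.07 in males, 0.22 ± 0.07 in females and 0.29 ± 0.07 in flutamide-treated males (adjusted p = 0.0154, 0.0261 and 0.0089), and its days overlapped. In males the call was lost for Pcyt1a without 17 m 1, 17 m 3, 18 m 1 or 18 m 2 (adjusted p 0.0713 to 0.169) and for Cept1 without 17 m 1, 17 m 3 or 18 m 1 (adjusted p 0.053 to 0.0776). In females it was lost for Cept1 without 17 f 1, 17 f 2, 17 f 3, 18 f 1 or 18 f 3 (adjusted p 0.0528 to 0.0771), and in flutamide-treated males for Pcyt1a without 17 flut 2, 17 flut 3, 18 flut 1 or 18 flut 3 (adjusted p 0.0548 to 0.0929) and for Chpt1 without 17 flut 2 or 18 flut 3 (adjusted p 0.058 to 0.0713). Without the 3 GD17 pools Pcyt1a was at 0.26 (adjusted p = 0.212) and Cept1 at 0.20 (adjusted p = 0.111) in males, and Cept1 at 0.24 (adjusted p = 0.124) in females. Without all 5 these were 0.38 (adjusted p = 0.0778), 0.25 (adjusted p = 0.0632) and 0.24 (adjusted p = 0.0944).

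Chka, the choline kinase that starts the CDP-choline pathway, was called by day only in females, from 8.94, 8.98 and 9.01 to 9.55, 9.42 and 9.31 (0.45 ± 0.06, adjusted p = 3.64e-05). In males it went from 9.29, 9.31 and 9.27 to 9.15, 9.23 and 9.16 (-0.11 ± 0.06, adjusted p = 0.245), and in flutamide-treated males from 9.15, 9.06 and 9.04 to 9.29, 9.21 and 9.18 (0.14 ± 0.06, adjusted p = 0.151). Another Chka probe set, 1450264_a_at, was called higher in every group, as given below. Chkb, Pcyt1b and Pemt, which makes phosphatidylcholine from phosphatidylethanolamine in the liver, were not called in any day comparison. Pemt was at 7.56 in 18 m 3, the pool with the highest liver genes, and at 5.85 to 6.72 in the other 17 pools. The 3 lysophosphatidylcholine acyltransferases, which remodel finished phosphatidylcholine, gave 1 call: Lpcat3 went from 9.46, 9.25 and 9.46 to 9.64, 9.63 and 9.70 in flutamide-treated males (0.27 ± 0.09, adjusted p = 0.0412), a call lost without any 1 of its pools, 17 flut 1, 17 flut 2, 17 flut 3, 18 flut 1, 18 flut 2 or 18 flut 3 (adjusted p 0.0518 to 0.197), and with the 3 GD17 pools of other groups left out of the fit (adjusted p = 0.0719). Lpcat2 and Lpcat4 were not called.

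Both acetate-activating enzymes rose with the day. Acss2, which makes acetyl-CoA from acetate in the cytosol and nucleus, was at 7.0, 7.37 and 6.84 in males, 7.30, 7.46 and 7.44 in females and 7.56, 7.10 and 7.35 in flutamide-treated males at GD17. At GD18 it was at 8.45, 8.35 and 8.59 in males, 8.91, 8.75 and 8.88 in females and 8.93, 8.90 and 9.03 in flutamide-treated males, with no overlap between the days. The rise was 2.63-fold in males, 2.72-fold in females and 3.07-fold in flutamide-treated males, which is 1.40 ± 0.12 in males, 1.45 ± 0.12 in females and 1.62 ± 0.12 in flutamide-treated males (adjusted p = 2.05e-06, 3.1e-07 and 1.15e-06). Acss1, its mitochondrial counterpart, was at 7.18, 7.46 and 7.53 in males, 7.62, 8.17 and 8.14 in females and 7.67, 7.68 and 7.62 in flutamide-treated males at GD17 and at 8.23, 8.14 and 8.71 in males, 8.52, 8.36 and 8.28 in females and 8.38, 8.28 and 8.40 in flutamide-treated males at GD18. It rose by 0.97 ± 0.15 in males, 0.42 ± 0.15 in females and 0.70 ± 0.15 in flutamide-treated males (adjusted p = 0.000186, 0.0413 and 0.00274), and the days overlapped only through 17 f 2, one of the pools high in pancreas genes, and 18 m 2. In females this call was lost without 17 f 1, 18 f 1, 18 f 2 or 18 f 3 (adjusted p 0.0511 to 0.224). The other 3 genes of this role, Acly (citrate to acetyl-CoA), Slc25a1 (export of citrate from mitochondria) and Me1 (NADPH from malate), were not called in any day comparison.

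**Figure D3:**
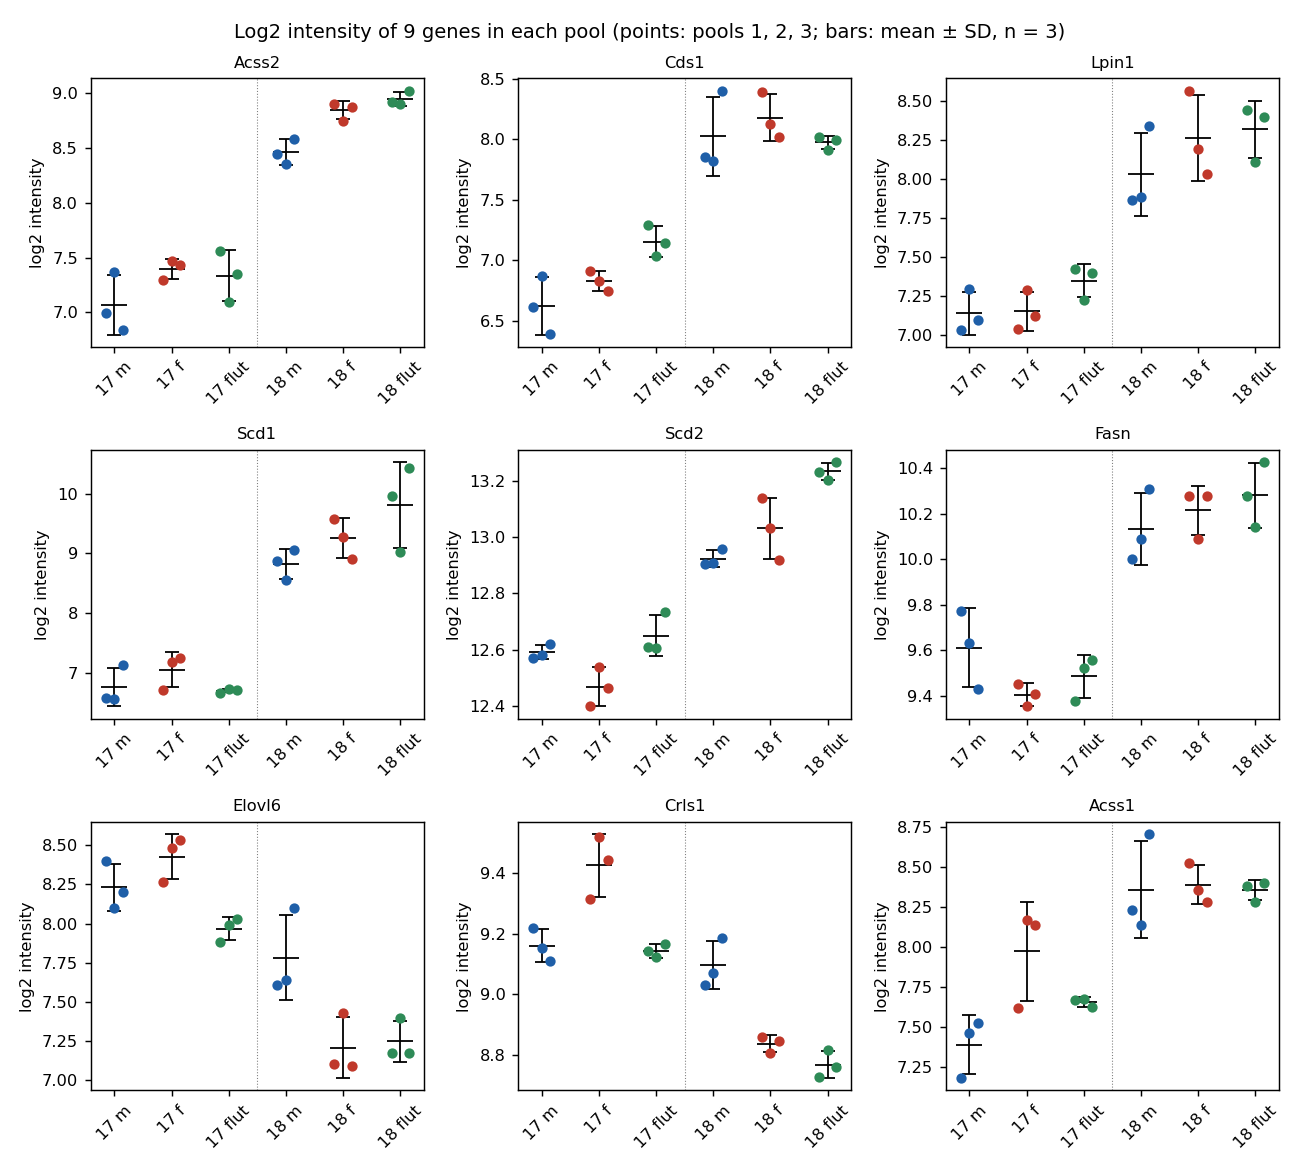
Log2 intensity of 9 members in each pool (points) with the group mean ± SD (n = 3 pools), for the 6 groups. Acss2, Cds1, Lpin1, Scd1, Scd2 and Fasn show higher pools at GD18 with no overlap, Elovl6 shows lower ones, and Crls1 and Acss1 differ between groups of the same day.

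Fasn, the fatty acid synthase that builds palmitate, was at 9.77, 9.63 and 9.43 in males, 9.45, 9.35 and 9.41 in females and 9.38, 9.52 and 9.56 in flutamide-treated males at GD17 and at 10.003, 10.09 and 10.31 in males, 10.28, 10.09 and 10.28 in females and 10.28, 10.14 and 10.43 in flutamide-treated males at GD18. Every GD18 pool was above every GD17 pool, and the differences were 0.52 ± 0.10 in males, 0.81 ± 0.10 in females and 0.80 ± 0.10 in flutamide-treated males (adjusted p = 0.00123, 1.04e-05 and 3.87e-05). The acetyl-CoA carboxylases, which provide its malonyl-CoA, moved less. Acaca was called only in flutamide-treated males, from 8.07, 8.09 and 8.22 to 8.31, 8.30 and 8.49 (0.24 ± 0.08, adjusted p = 0.0363). Acacb was called only in males, from 6.23, 5.98 and 6.03 to 6.28, 6.59 and 6.61 (0.42 ± 0.11, adjusted p = 0.0128). The call of Acaca was lost without 17 flut 1, 17 flut 2 or 18 flut 3 (adjusted p 0.115 to 0.181) and that of Acacb without 17 m 2 or 18 m 3 (adjusted p 0.051 to 0.055). Both calls were also lost without the 2 GD18 pools. Without all 5 pools Acaca was at 0.18 (adjusted p = 0.156) and Acacb at 0.34 (adjusted p = 0.144), and without the 3 GD17 pools they were at 0.24 (adjusted p = 0.0588) and 0.39 (adjusted p = 0.065). Srebf1, a transcription factor known for activating genes of fatty acid synthesis, was at 9.08, 8.83 and 8.85 in males, 8.94, 8.93 and 8.96 in females and 9.03, 8.95 and 9.03 in flutamide-treated males at GD17 and at 9.27, 9.09 and 9.41 in males, 9.41, 9.31 and 9.22 in females and 9.38, 9.32 and 9.51 in flutamide-treated males at GD18. Its days did not overlap, and its differences were 0.33 ± 0.09 in males, 0.37 ± 0.09 in females and 0.40 ± 0.09 in flutamide-treated males (adjusted p = 0.00965, 0.00317 and 0.00316). The call was lost without the 3 GD17 pools in males, at 0.30 (adjusted p = 0.0643), and in females, at 0.38 (adjusted p = 0.0654), and without all 5 pools in males, at 0.22 (adjusted p = 0.16), but not in females, at 0.38 (adjusted p = 0.0313).

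The chain-modifying enzymes held both the largest rise and the 2 members that fell throughout. Scd1, the stearoyl-CoA desaturase that puts a double bond into palmitate and stearate, was at 6.58, 6.57 and 7.14 in males, 6.71, 7.19 and 7.24 in females and 6.67, 6.73 and 6.71 in flutamide-treated males at GD17. Its GD18 values were 8.86, 8.55 and 9.05 in males, 9.58, 9.27 and 8.90 in females and 9.97, 9.02 and 10.43 in flutamide-treated males. All GD18 pools were above all GD17 pools, and the rise was 4.18-fold in males, 4.61-fold in females and 8.59-fold in flutamide-treated males, or 2.06 ± 0.28 in males, 2.20 ± 0.28 in females and 3.10 ± 0.28 in flutamide-treated males (adjusted p = 5.62e-05, 1.01e-05 and 2.71e-06). Scd2, another stearoyl-CoA desaturase, was at 12.57, 12.58 and 12.62 in males, 12.40, 12.54 and 12.47 in females and 12.61, 12.61 and 12.73 in flutamide-treated males at GD17 and at 12.90, 12.91 and 12.96 in males, 13.14, 13.03 and 12.92 in females and 13.23, 13.20 and 13.26 in flutamide-treated males at GD18. It rose by 0.33 ± 0.06 in males, 0.56 ± 0.06 in females and 0.58 ± 0.06 in flutamide-treated males (adjusted p = 0.00119, 4.31e-06 and 1.24e-05) with no overlap between the days. Elovl5, an elongase of polyunsaturated chains, was at 11.22, 11.40 and 11.14 in males, 11.30, 11.15 and 11.23 in females and 11.46, 11.39 and 11.35 in flutamide-treated males at GD17 and at 11.70, 11.61 and 11.81 in males, 11.85, 11.76 and 11.79 in females and 11.80, 11.68 and 11.73 in flutamide-treated males at GD18. The days again lay apart, with differences of 0.46 ± 0.07 in males, 0.57 ± 0.07 in females and 0.34 ± 0.07 in flutamide-treated males (adjusted p = 0.00031, 1.65e-05 and 0.00369).

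Elovl6, the elongase that lengthens palmitate to stearate, fell in all 3 groups. It was at 8.40, 8.10 and 8.20 in males, 8.26, 8.48 and 8.53 in females and 7.88, 7.99 and 8.03 in flutamide-treated males at GD17 and at 7.61, 7.64 and 8.10 in males, 7.10, 7.43 and 7.09 in females and 7.17, 7.40 and 7.17 in flutamide-treated males at GD18. In males the days came close, with 17 m 2 and 18 m 3 both at 8.10, and 18 m 3 lay above the GD17 pools of the flutamide-treated males. The differences were -0.45 ± 0.13 in males, -1.22 ± 0.13 in females and -0.72 ± 0.13 in flutamide-treated males (adjusted p = 0.0176, 2.18e-06 and 0.000754), and the call in males was lost without 17 m 1, 18 m 1 or 18 m 2 (adjusted p 0.0687 to 0.0862). Fads2, a desaturase of polyunsaturated chains, was at 8.69, 8.55 and 8.56 in males, 8.59, 8.51 and 8.71 in females and 8.43, 8.38 and 8.35 in flutamide-treated males at GD17 and at 8.04, 7.98 and 7.96 in males, 7.80, 7.89 and 7.74 in females and 8.0, 8.14 and 8.04 in flutamide-treated males at GD18. All pools of GD18 were below all of GD17, with differences of -0.61 ± 0.07 in males, -0.80 ± 0.07 in females and -0.33 ± 0.07 in flutamide-treated males (adjusted p = 1.26e-05, 3.11e-07 and 0.00223). Fads1, which acts in the same pathway, was called lower in females, from 9.59, 9.66 and 9.62 to 9.20, 9.27 and 9.16 (-0.42 ± 0.09, adjusted p = 0.00211), with -0.19 ± 0.09 in males and -0.11 ± 0.09 in flutamide-treated males. Without the 3 GD17 pools it was at -0.38 (adjusted p = 0.0833) in females, and without all 5 at -0.38 (adjusted p = 0.0475). Elovl1, an elongase of saturated chains, was called higher in flutamide-treated males, from 10.03, 9.88 and 9.93 to 10.13, 10.22 and 10.30 (0.27 ± 0.07, adjusted p = 0.00969), and this call was lost without 17 flut 2 or 18 flut 3 (adjusted p 0.0519 to 0.0571) and without all 5 pools, at 0.23 (adjusted p = 0.0548).

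Acyl-CoA synthetases make fatty acids ready for use, and their 3 members took different courses. Acsl4, which prefers arachidonate, was at 9.57, 9.72 and 9.64 in males, 9.69, 9.65 and 9.55 in females and 9.83, 9.81 and 9.98 in flutamide-treated males at GD17 and at 9.96, 10.07 and 10.30 in males, 10.34, 10.18 and 10.03 in females and 10.25, 10.27 and 10.34 in flutamide-treated males at GD18. It rose by 0.47 ± 0.09 in males, 0.55 ± 0.09 in females and 0.42 ± 0.09 in flutamide-treated males (adjusted p = 0.0013, 0.000158 and 0.00334), and the days overlapped only through 17 flut 3 and 18 m 1. Acsl3 was called lower in males, from 8.69, 8.61 and 8.63 to 8.47, 8.33 and 8.37 (-0.25 ± 0.08, adjusted p = 0.0267), and in females, from 8.59, 8.54 and 8.74 to 8.23, 8.38 and 8.13 (-0.38 ± 0.08, adjusted p = 0.00125). In flutamide-treated males it stood at -0.23 ± 0.08 (adjusted p = 0.0504), and the call in males was lost without 17 m 1, 17 m 3, 18 m 2 or 18 m 3 (adjusted p 0.0552 to 0.0871). Acsl3 was not called in males without the 2 GD18 pools either. Without the 3 GD17 pools it was at -0.26 (adjusted p = 0.0624) in males and -0.34 (adjusted p = 0.0508) in females, and without all 5 at -0.25 (adjusted p = 0.119) and -0.34 (adjusted p = 0.0496). Acsl5 was not called in any day comparison.

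Few of these genes were called between male and female lungs on either day. At GD17 limma called 3 of 42 members, 1 higher and 2 lower in males, against 1.67% of all genes (0.929% higher and 0.742% lower). At GD18 it called 2, both higher, against 1.68% of all genes (1.43% higher and 0.242% lower). An unadjusted limma p under 0.05 was found for 11 of the 42 members at GD17 and 9 at GD18. Of all 18193 genes, 2513 and 2753 had such a p. Chka (chr19:3851585-3894369 in GRCm38.p6) was higher in males at GD17, at 9.29, 9.31 and 9.27 against 8.94, 8.98 and 9.01 in females. The groups did not overlap, and the difference was 0.32 ± 0.06 (adjusted p = 0.00864). At GD18 the order was turned, with males at 9.15, 9.23 and 9.16 and females at 9.55, 9.42 and 9.31, without overlap but not called (-0.25 ± 0.06, adjusted p = 0.0615). Acss1 was lower in males at GD17, at 7.18, 7.46 and 7.53 against 7.62, 8.17 and 8.14 (-0.58 ± 0.15, adjusted p = 0.0356).

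Crls1 (chr2:132846650-132866786) was at 9.22, 9.15 and 9.11 in males and 9.32, 9.52 and 9.44 in females at GD17, lower in males (-0.26 ± 0.06, adjusted p = 0.0243). At GD18 it was at 9.03, 9.07 and 9.19 in males and 8.86, 8.80 and 8.85 in females, higher in males (0.26 ± 0.06, adjusted p = 0.0479). Elovl6 (chr3:129532386-129638495) was higher in males at GD18, at 7.61, 7.64 and 8.10 against 7.10, 7.43 and 7.09 (0.58 ± 0.13, adjusted p = 0.0346), where pool 18 m 3 was the highest. At GD18, 4 of the 9 dividing-cell genes were also called higher in males. Liver genes were higher in males too, by a median of 2.46 over 10 genes, with 7 of 10 not overlapping and 7 at an unadjusted p under 0.05, while limma called 0. Of all 18193 genes 2753 had an unadjusted p under 0.05 in this comparison, and those without overlap were not counted. At GD17 pancreas, squamous epithelium and erythroid genes were lower in males, by medians of -1.60, -1.67 and -0.55, with 1 gene of each list called. The part of these markers in the differences was not tested. Without 17 f 2, 17 f 3 and 17 m 3, the GD17 differences were 0.36 (adjusted p = 0.155) for Chka, -0.29 (adjusted p = 0.701) for Acss1 and -0.13 (adjusted p = 0.735) for Crls1, a comparison that leaves 2 males and 1 female, the lone female pool being assumed to vary like the other groups. Without 18 m 3 the GD18 difference was 0.42 (adjusted p = 0.0444) for Elovl6 and 0.21 (adjusted p = 0.0633) for Crls1. Neither gene was called at GD18 without the 3 GD17 pools, the 2 GD18 pools or all 5. The GD17 calls of Chka, Acss1 and Crls1 were lost without all 5 as well. Of single pools, the calls at GD17 were lost for Acss1 without 17 f 2, 17 f 3, 17 m 1 or 17 m 2 (adjusted p 0.0778 to 0.171) and for Crls1 without 17 f 2, 17 f 3, 17 m 2 or 17 m 3 (adjusted p 0.0684 to 0.137). At GD18 they were lost for Elovl6 without 18 f 1 or 18 f 3 (adjusted p 0.14 to 0.158) and for Crls1 without any 1 of its 6 pools, 18 f 1, 18 f 2, 18 f 3, 18 m 1, 18 m 2 or 18 m 3 (adjusted p 0.0633 to 0.137).

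Flutamide changed 0 of 42 members at GD17 by limma, against 2.69% of all genes called (1.69% higher and 1% lower). Of all 18193 genes 3417 had an unadjusted p under 0.05, and of the members 8, a like share. The lowest adjusted p was that of Cds1, at 7.29, 7.03 and 7.14 with flutamide and 6.61, 6.87 and 6.39 without (0.53 ± 0.14, adjusted p = 0.0546), and 4 of the 14 type II genes were called higher in the same comparison. At GD18 limma called 4 members, 2 higher and 2 lower with flutamide, against 4.22% of all genes (0.555% higher and 3.67% lower). These comparisons use the same males as the sex comparisons, so the values of each are given side by side and no likeness is drawn.

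Acss2 was higher with flutamide at GD18, at 8.93, 8.90 and 9.03 against 8.45, 8.35 and 8.59 in males (0.49 ± 0.12, adjusted p = 0.0364). Females were at 8.91, 8.75 and 8.88. Scd2 was also higher, at 13.23, 13.20 and 13.26 against 12.90, 12.91 and 12.96 (0.31 ± 0.06, adjusted p = 0.0117), and females were at 13.14, 13.03 and 12.92. For both genes the flutamide-treated and male pools did not overlap. Scd1 was at 9.97, 9.02 and 10.43 against 8.86, 8.55 and 9.05 and was not called (0.98 ± 0.28, adjusted p = 0.0592), with 18 flut 2 below 18 m 3. Elovl6 was lower with flutamide, at 7.17, 7.40 and 7.17 against 7.61, 7.64 and 8.10 (-0.53 ± 0.13, adjusted p = 0.0301), and Crls1 too, at 8.73, 8.82 and 8.76 against 9.03, 9.07 and 9.19 (-0.33 ± 0.06, adjusted p = 0.0072). In the same comparison 4 of the 9 dividing-cell genes were called lower, and their part in these differences was not tested. Without 18 m 3 the differences were 0.55 (adjusted p = 0.0238) for Acss2, 0.33 (adjusted p = 0.0124) for Scd2, -0.38 (adjusted p = 0.0656) for Elovl6 and -0.28 (adjusted p = 0.0176) for Crls1. Without 18 flut 3, the pool with Xist at 11.9, they were 0.45 (adjusted p = 0.128), 0.29 (adjusted p = 0.0565), -0.50 (adjusted p = 0.112) and -0.32 (adjusted p = 0.034) in the same order. Of the 4 calls 1 was left without 18 flut 3, and 5 members were called without 18 m 3. Leaving out the 2 GD18 pools together ended the calls of Acss2 and Elovl6. Elovl6 was also not called without the 3 GD17 pools, and Acss2, Scd2, Elovl6 and Crls1 were not called without all 5 pools. Single pools also ended the call of Acss2 without 18 flut 1, 18 flut 2, 18 flut 3, 18 m 1 or 18 m 2 (adjusted p 0.0712 to 0.128) and of Elovl6 without 18 flut 1, 18 flut 3 or 18 m 3 (adjusted p 0.0656 to 0.112).

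Whether the sex difference itself changed between the days was tested as an interaction, the GD18 difference minus the GD17 difference. Limma called 3 members, 2 higher and 1 lower, against 4.77% of all genes (3.89% higher and 0.885% lower). Chka gave -0.56 ± 0.09 (adjusted p = 0.00131), from a day difference of 0.45 in females and -0.11 in males. Crls1 gave 0.52 ± 0.09 (adjusted p = 0.00198) and Elovl6 gave 0.77 ± 0.18 (adjusted p = 0.0186), both with a steeper fall in females. Without 17 f 2, 17 f 3 and 17 m 3 together the values were -0.61 (adjusted p = 0.0229) for Chka, 0.39 (adjusted p = 0.0956) for Crls1 and 0.59 (adjusted p = 0.301) for Elovl6. The Elovl6 call was also lost without 17 f 3, 17 m 2, 18 f 1 or 18 f 3 (adjusted p 0.0518 to 0.057). In the same interaction the liver list had a median of 3.96, with 0 genes called by limma. An unadjusted p under 0.05 was found for 9 of its 10 genes, against 3603 of all 18193 genes. Of the 9 dividing-cell genes 2 were called higher. The part of these markers in the values was not tested. For the other 39 members, a day call in one sex and not in the other was not shown to be a difference between the sexes. The interaction of flutamide with day called 0 of 42 members by limma, against 0.17% of all genes (0.0879% higher and 0.0824% lower). An unadjusted p under 0.05 was found for 8 of the 42 members, against 1974 of all 18193 genes.

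Other probe sets of the same genes did not always follow. Of the 42 members, 31 had 60 further probe sets. In the day comparisons, 23 of these were called in males, 30 in females and 20 in flutamide-treated males, against 25%, 33.6% and 20.3% of all 45037 probe sets. Of those called, 20, 26 and 17 had the same direction and call as the probe set used above, and 0 members were called in opposite directions. Such agreement was not counted for other genes. For Chka, the probe set 1450264_a_at rose in every group, by 0.45 ± 0.08 in males, 0.48 ± 0.08 in females and 0.48 ± 0.08 in flutamide-treated males (adjusted p = 0.00099, 0.000273 and 0.000644), and differed between the sexes by 0.00 ± 0.08 at GD17 (adjusted p = 0.998). The probe set 1453582_at gave a sex difference of 0.33 ± 0.10 at GD17 (adjusted p = 0.0734), an interaction of -0.48 ± 0.14 (adjusted p = 0.0479) and a flutamide difference at GD17 of -0.43 ± 0.10 (adjusted p = 0.0263). An interaction of sex with day was called for 2 of the 3 Chka probe sets.

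**Figure D4:**
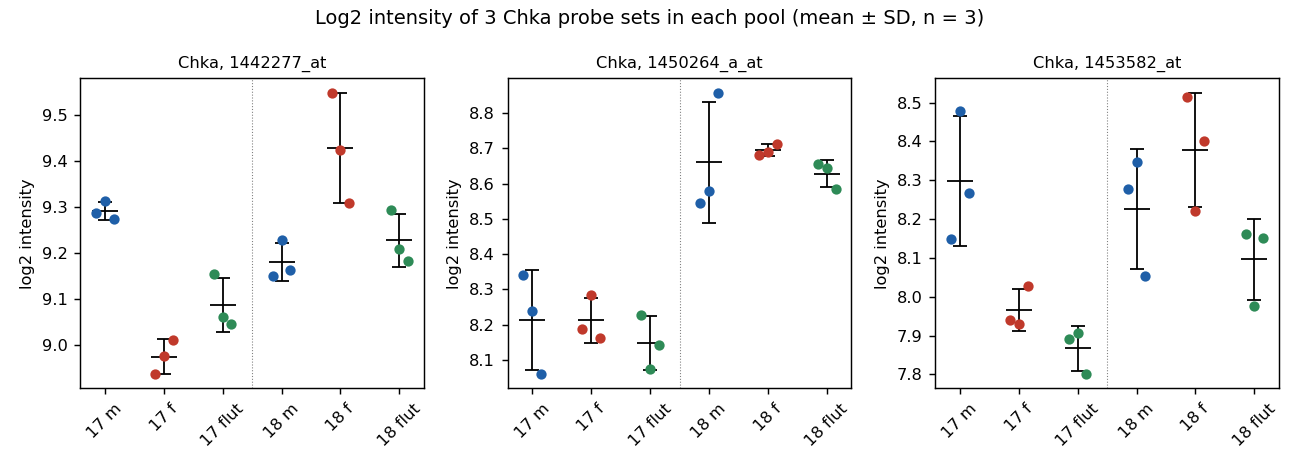
Mean ± SD (n = 3 pools) of the log2 intensity of the 3 Chka probe sets in the 6 groups. 1442277_at has males above females at GD17 and below them at GD18, 1450264_a_at rises in all 3 groups, and 1453582_at has males highest at GD17.

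The other Crls1 probe set, 1429737_a_at, gave -0.02 ± 0.12 between the sexes at GD17 (adjusted p = 0.957) and 0.25 ± 0.12 at GD18 (adjusted p = 0.358), and was called only for its fall in females (-0.55 ± 0.12, adjusted p = 0.00182). The Crls1 probe set used above carries the suffix _x_at, as do those of Agpat4, Cds2, Pgs1, Elovl1 and Elovl5, which marks probes that can also bind other transcripts. For Elovl6, 1417403_at gave 0.55 ± 0.17 between the sexes at GD18 (adjusted p = 0.118) and -0.52 ± 0.17 with flutamide (adjusted p = 0.12). At GD18 1442656_at was at 6.02, 6.0 and 6.03 in males, 5.72, 6.04 and 5.80 in females and 5.99, 6.0 and 5.76 in flutamide-treated males. At GD17 it was at 6.40, 6.22 and 6.38 in males and 6.24, 6.06 and 6.03 in females. With the mean of all probe sets the Elovl6 calls for sex at GD18, flutamide at GD18 and the interaction of sex with day were lost. A further Acss2 probe set, 1422479_at, was called with flutamide at GD18 too (0.33 ± 0.08, adjusted p = 0.0214), and the other 2 of Scd2 were not. For Scd2, 1415824_at was at 12.15, 11.64 and 12.07 with flutamide against 11.95, 11.92 and 12.12 in males. The values of 1415823_at were 11.69, 11.41 and 11.72 against 11.39, 11.30 and 10.19. With the mean of all probe sets the Scd2 call with flutamide was lost, and so was that by day in males (adjusted p = 0.206). Chpt1 had a probe set, 1435870_at, that was called higher in males at GD18 (0.35 ± 0.09, adjusted p = 0.0468) and lower with flutamide (-0.72 ± 0.09, adjusted p = 0.000149), while the one used above gave -0.01 ± 0.09 and -0.05 ± 0.09. In 18 m 3, where the 5′ control signal was low, 3 of the 102 member probe sets lay over 1 log2 below both other male pools. This held for 696 of all 45037 probe sets (1.55%), and the 3 of the members were among the 60 further ones.

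Within a day, the level of a few members followed the mean of the 14 type II genes across pools. Pearson's r was computed over the 9 pools of each day for 42 members, 84 relations in all, with exact permutation p-values. All 9 pools were permuted without regard to group, so a difference between groups enters r and its p. At GD17 the pools of flutamide-treated males had the highest means of the type II genes (10.05, 9.87 and 9.94). The relation was computed for the members only. The share of all genes that would pass on either day was not counted, so it is not known to be particular to these genes. At GD17, 3 of 42 members passed after adjustment. Elovl5 had r = 0.962 (exact permutation p = 0.000174, adjusted p = 0.00729) and Spearman's rho = 0.917 (adjusted p = 0.0367). Cds1 had r = 0.936 (exact permutation p = 4.41e-05, adjusted p = 0.0037) and rho = 0.967 (adjusted p = 0.0139), and Gpam had r = 0.897 (exact permutation p = 0.000463, adjusted p = 0.00972) and rho = 0.933 (adjusted p = 0.0315). Without 17 m 1 and 17 m 3, the pools farthest from the median, r was 0.956, 0.871 and 0.793 in that order. Within the 6 vehicle pools r was 0.948, 0.837 and 0.787, and without the 3 pools high in pancreas genes it was 0.927, 0.945 and 0.899.

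At GD18 only Scd1 passed, with r = 0.931 (exact permutation p = 0.000317, adjusted p = 0.00887), while its rho of 0.883 had an adjusted p of 0.0517. Without 18 flut 1 and 18 flut 3 its r was 0.844, within the 6 vehicle pools 0.865, and without 18 m 3 and 18 flut 3 it was 0.927. The pools share their normalization, and 3 groups of 3 pools make up each day.

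**Figure D5:**
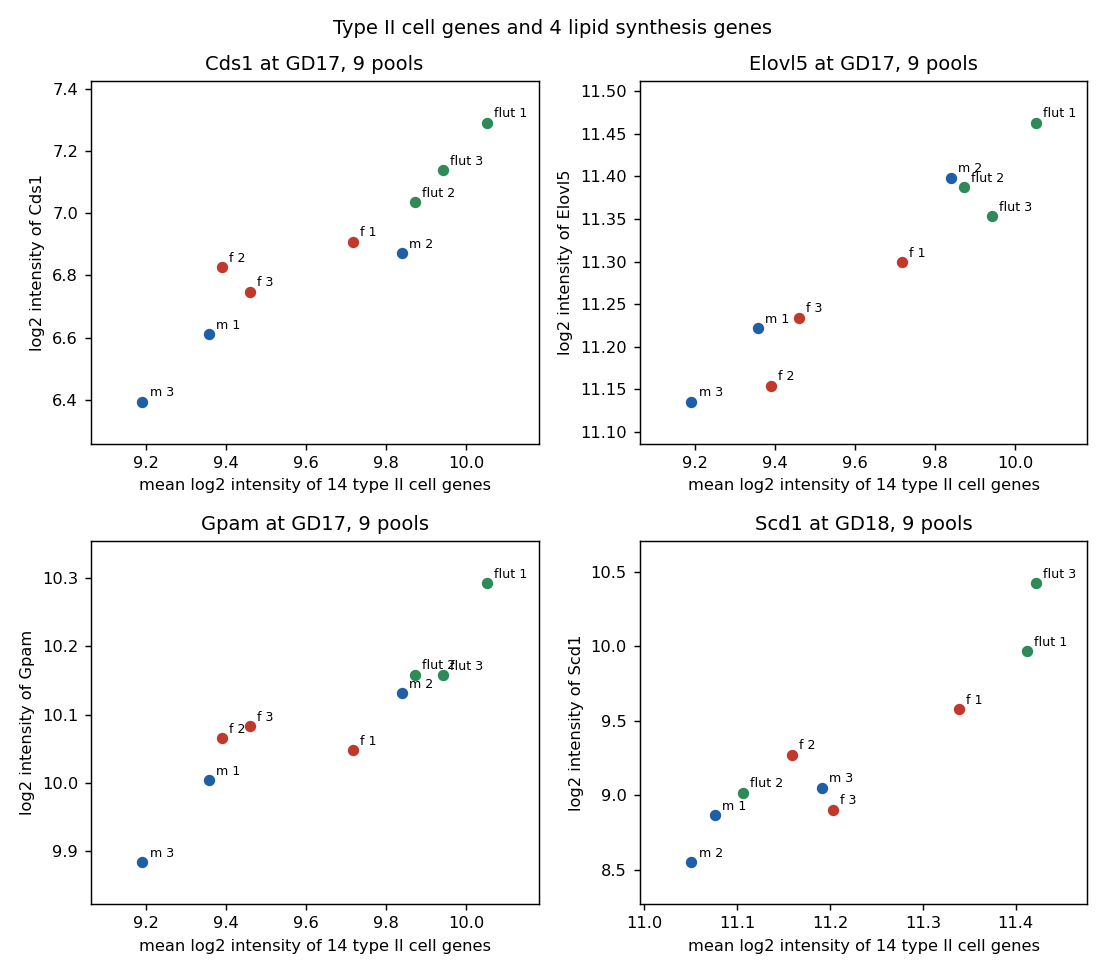
Log2 intensity of Cds1, Elovl5 and Gpam at GD17 and of Scd1 at GD18 (vertical axes) against the mean log2 intensity of 14 type II cell genes (horizontal axes), 1 point per pool with the group as colour. The points run from lower left to upper right in each panel, with Pearson's r of 0.897 to 0.962, though neighbouring pools change places.

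Further genes of the same pathways, 87 measured of 101 in 8 lists, were counted the same way. By day 30 were called higher and 10 lower in males, 19 and 22 in females, and 24 and 7 in flutamide-treated males. As shares these were 34.5% and 11.5%, 21.8% and 25.3%, and 27.6% and 8.05%, against 17.7% and 12.4%, 17.2% and 22.5%, and 13% and 13.8% of all genes, so that in females both shares were near those of all genes. The lists are small, and the counts below are to be read against the same shares of all genes. Of 9 genes of fatty acid uptake and binding, 7, 6 and 8 were called higher and 0 lower, in that order of groups. Cd36, a fatty acid receptor that is also abundant in lung capillaries, rose by 1.85, 1.92 and 1.80 in males, females and flutamide-treated males, and Gpihbp1, which anchors lipoprotein lipase to capillary endothelium, by 1.13, 1.13 and 0.90.

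Of 13 other genes of choline and ethanolamine lipids, 7, 6 and 6 were called higher and 1, 3 and 1 lower. Lpcat1, which makes dipalmitoyl phosphatidylcholine in type II cells and is also among the type II genes, rose by 0.89, 0.99 and 0.70, and the choline transporter-like Slc44a2 by 0.54, 0.93 and 0.67, while Selenoi, an ethanolamine phosphotransferase, fell by 0.54, 0.72 and 0.42. Of 6 genes of phosphatidylserine, phosphatidylinositol and phosphatidylglycerol, 1, 0 and 1 were called higher and 1, 3 and 1 lower. Among them Tamm41, the mitochondrial CDP-diacylglycerol synthase, fell by 0.46, 0.93 and 0.80, opposite to Cds1 and Cds2. Of 11 other genes of phosphatidate and glycerol phosphate, 5, 2 and 4 were called higher and 2, 4 and 1 lower, with the lipid phosphatase Plpp3 up by 0.37, 0.65 and 0.54.

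Of 18 other genes of fatty acid synthesis and elongation, 4, 2 and 3 were called higher and 4, 7 and 2 lower. Hsd17b12, the ketoacyl reductase of the elongation cycle, fell by 0.51, 0.67 and 0.48, the same direction as Elovl6. Of 7 genes that provide NADPH, 1, 0 and 0 were called higher and 2, 4 and 2 lower, among them Me2, down by 0.54, 0.95 and 0.56. Of 13 regulators, 5, 3 and 2 were called higher and 0, 1 and 0 lower, with Cebpa, a factor of type II cells, up by 1.32, 0.95 and 0.83 and the fatty acid receptor Ppara by 0.76, 0.52 and 0.59. None of the 10 other acyl-CoA synthetases was called by day.

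In the sex comparisons limma called 0 of these 87 genes on either day, with 17 at an unadjusted p under 0.05 at GD17 and 10 at GD18. Of all 18193 genes 2513 and 2753 had such a p at GD17 and GD18. With flutamide it called 2 at GD17, Lpcat1 (0.36 ± 0.09, adjusted p = 0.0347) and Acsbg1 (0.34 ± 0.08, adjusted p = 0.0274), and 1 at GD18, Tamm41 (-0.37 ± 0.09, adjusted p = 0.0371). The interaction of sex with day called 3, namely Pcyt2, the cytidylyl transferase of the ethanolamine branch (0.41 ± 0.12, adjusted p = 0.0455), Tamm41 (0.47 ± 0.13, adjusted p = 0.0426) and Hacd2, a dehydratase of the elongation cycle (0.41 ± 0.12, adjusted p = 0.0475). The interaction of flutamide with day called 0, with 6 at an unadjusted p under 0.05, against 1974 of all 18193 genes at that cut.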

How the data were processed

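RNA of 18 pools was hybridized to MOE430 2.0 arrays, and the images were read with GCOS. The authors corrected, normalized and summarized the probe sets by RMA and deposited 1 linear intensity for each probe set of a pool, of which the log2 was taken here. Limma is named, with no version, in the submitters' processing notes. Of 45101 probe sets, 64 AFFX controls were left out and 45037 were tested in limma 3.58.1 (R 4.3.3) as 6 group means (12 residual degrees of freedom), eBayes and the Benjamini-Hochberg adjustment within each of 9 comparisons, called at 0.05. An annotation of 2016 gave 1 symbol to 34945 probe sets. Shares of all genes called are over 18193 genes, each by its brightest probe set. The fit was checked on simulated data. Members, marker lists and pathway lists were chosen with earlier results of these data known. Members called in at least 1 comparison, with Chka, Scd2 and Elovl6, are given pool by pool, and of other lists up to 4 genes with the smallest p are named. Sequences are from RefSeq on GRCm38.p6. Alternatives covered centring, a further quantile normalization, dim probe sets, array weights, the groups fitted, gene means over probe sets, pools left out and a replicate block. Leaving out the 5 pools together was chosen after seeing the data.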

Additional observations from a re-analysis of the deposited data

Results flagged for a closer look

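For 3 members the sex difference, males minus females, changed between the days by the interaction test of limma. For Chka the GD18 difference minus the GD17 difference was -0.56 (adjusted p = 0.00131), with males above females at GD17 and below them at GD18, and it was called in every alternative tried. The interaction was not called for the further Chka probe set 1450264_a_at. For Crls1 it was 0.52 (adjusted p = 0.00198), with males below females at GD17 and above them at GD18. For Elovl6 it was 0.77 (adjusted p = 0.0186), where males were at -0.19 relative to females at GD17 and at 0.58 at GD18. The 3 GD17 pools high in pancreas genes and 18 m 3 enter all 3 values, and without all 5 pools that stood apart the values were -0.60 (adjusted p = 0.0285) for Chka, 0.34 (adjusted p = 0.108) for Crls1 and 0.43 (adjusted p = 0.283) for Elovl6.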

How the results depend on the processing

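Over the settings tried, the 88 member differences called kept their direction in every one, and 48 stayed called in every one. Counts of members called moved by over 1.5 times as follows, with the cause not tested. Removing pools or groups also leaves fewer arrays in the fit, so a lost call cannot be assigned to what was removed. For males against females at GD17 (3 called) the count was 5 with arrays centred on their medians, 6 with array weights, 1 with only these groups in the fit, 1 with the adjustment over 1 probe set per gene, 0 with the mean of all probe sets, 0 without the 3 GD17 pools high in pancreas genes, 5 without the 2 GD18 pools that stand apart and 0 without all 5. At GD18 (2 called) it was 5 with array weights, 0 with only these groups, 1 with the mean of all probe sets, and 0 without the 3, the 2 or all 5 pools. For flutamide at GD17 (0 called) it was 1 without probe sets below the median level, 1 with array weights, 2 with the mean of all probe sets and 1 without the 2 GD18 pools. For flutamide at GD18 (4 called) it was 10 with array weights, 0 with only these groups, 2 with the mean of all probe sets, 2 without the 2 GD18 pools and 0 without all 5. The day comparison in males (25) gave 15 with only these groups, and the interaction of sex with day (3) gave 1 without the 3 GD17 pools and 1 without all 5. With the replicate number as a block the count for males against females at GD18 was 1, and the block changed no other count by over 1.5 times. The numbers did not pair the pools: the deviations of same-numbered pools correlated at 0.008 on average, against -0.005 for other pairs. Leaving out 1 pool at a time gave 1 to 4 calls for sex at GD17, 0 to 1 at GD18, 0 to 1 for flutamide at GD17, 1 to 5 at GD18, 20 to 24, 21 to 24 and 17 to 23 for the day in males, females and flutamide-treated males, 2 to 5 for the interaction of sex with day and 0 to 0 for that of flutamide. Signal limits some members, since 38 of 42 had a mean level above the median of all probe sets. The others, Pcyt1b, Pemt, Lpin3 and Acacb, lay nearer to background, and of these Lpin3 and Acacb were called by day.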
